A study of Sus scrofa with 23 samples.

Results

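The renal hexose transporters described here are 10 genes of the SLC5 and SLC2 families, SLC5A1, SLC5A2, SLC5A9, SLC5A10, SLC5A11, SLC2A1, SLC2A2, SLC2A3, SLC2A5 and SLC2A9. They were chosen by symbol from the 26687 genes to which the transcripts of the study were assigned, with earlier results of these data known. Kidney cortex of 23 newborn pigs was sequenced as total RNA after removal of ribosomal RNA. The labels give 11 pigs of genotype CFTR-/- (CF), 6 of genotype CFTR+/- (HET) and 6 Wild-type pigs (WT), and no treatment. The 12 HET and WT pigs together form the non-CF group used in the study's methods. Each library came from another pig. Litter is not given in the labels, so the p-values below treat the 23 pigs as independent.

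Filtered glucose is taken up by the proximal tubule through the SLC5 family, whose members couple the sugar to sodium at the luminal membrane. SGLT2 (SLC5A2) is known as the high-capacity carrier of the early tubule, and SGLT1 (SLC5A1) as the high-affinity carrier further downstream. The sugar then leaves the cell down its gradient through facilitative carriers of the SLC2 family, mainly GLUT2 (SLC2A2) in the early tubule, with GLUT1 (SLC2A1) in cells that use glucose themselves. Other members move related substrates: SLC5A9 and SLC5A10 carry mannose and fructose, SLC5A11 carries myo-inositol, GLUT5 (SLC2A5) carries fructose and GLUT9 (SLC2A9) carries urate. GLUT3 (SLC2A3) is a high-affinity glucose carrier best known from neurons and blood cells.

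Each library held between 32901281 and 52952273 estimated counts. All 14 proximal tubule markers on a list of known tubule genes were detected in the cortex. Counts of CFTR were 614 to 1040 in the libraries labelled CF, 442 to 699 in those labelled HET and 60 to 178 in those labelled WT. The RNA of the targeted gene was thus higher with more disrupted alleles, and groups are called by their labels throughout. Pigs numbered 1 to 6 and 12 to 18 (earlier-numbered, 13 libraries) and pigs numbered 7 to 11 and 19 to 23 (later-numbered, 10 libraries) differed at 9.91% of 20921 tested genes (2073 genes, and 1047 without WT pig 22), so results are also given within each set. The labels do not say what separates the 2 sets. The sets were chosen with earlier results of these data known, so tests between them are not independent of that choice. Cortex holds several cell types, and fewer cells of a type cannot be told apart from less RNA per cell.

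SGLT2 lies at chr3:17081138-17089422 on the minus strand and SGLT1 at chr14:48566400-48704145 on the plus strand. Each had annotated transcripts with different first exons. Both first exons of SGLT2 and the downstream one of SGLT1 carry a start codon. The coding bases of these 3 exons are shown because the reads of each gene were divided between transcripts that differ here. Capitals mark the start codon, and positions are those of Sscrofa11.1.
SLC5A2, upstream first exon, chr3:17089241-17089369, minus strand: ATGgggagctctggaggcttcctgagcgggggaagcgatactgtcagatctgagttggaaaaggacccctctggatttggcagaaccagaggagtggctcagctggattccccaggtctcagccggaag
SLC5A2, downstream first exon, chr3:17088843-17088968, minus strand: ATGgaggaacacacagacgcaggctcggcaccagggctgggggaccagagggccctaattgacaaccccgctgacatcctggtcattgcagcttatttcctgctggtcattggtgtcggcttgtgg
SLC5A1, downstream first exon, chr14:48628233-48628367, plus strand: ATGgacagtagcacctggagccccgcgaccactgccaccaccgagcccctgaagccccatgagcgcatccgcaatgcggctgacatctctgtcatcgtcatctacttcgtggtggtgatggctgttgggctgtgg

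The upstream first exon of SLC5A1 (chr14:48566400-48566509) is annotated as noncoding, and translation of that transcript is annotated to begin in the second exon. That model holds 616 codons, against 662 codons for the transcript with the downstream first exon. The second exons of SLC5A1 and SLC5A2 are both 72 bases long. They matched at 56 of the 72 bases (77.8%), and capitals mark the 16 bases that differ.
SLC5A1, second exon, chr14:48633576-48633647, plus strand: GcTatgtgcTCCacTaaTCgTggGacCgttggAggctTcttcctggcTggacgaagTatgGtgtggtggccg
SLC5A2, second exon, chr3:17087439-17087510, minus strand: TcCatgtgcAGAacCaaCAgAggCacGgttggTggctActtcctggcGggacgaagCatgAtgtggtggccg

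Levels of the 10 transporters were compared in TPM, the measure that divides by transcript length, and their medians ran from 0.115 to 742 TPM. GLUT2 stood first in every library. Its level was 252 TPM in the lowest library, 742 TPM at the median and 1520 TPM in the highest, and its median ranked 57 among 26687 genes. GLUT2 alone made up 77.2% ± 7.90 (SD, n = 23) of the summed TPM of the 10 genes. The gene lies at chr13:109592595-109614105 on the minus strand, with 1 annotated transcript, of 10 exons. It is annotated as partial, so the length behind its TPM is that of a partial model.

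Next came SLC5A10, with a median of 71.8 TPM (28.3 to 121), and SGLT2, with a median of 56.1 TPM (40.2 to 82.0). SLC5A10 was above SGLT2 in 17 of 23 libraries, so the order of this pair varied between pigs. SLC5A11 followed at 30.2 TPM (21.4 to 46.4), below SGLT2 in every library, and GLUT1 at 21.6 TPM (15.7 to 34.9), below SLC5A11 in 20 of 23. SGLT1 had a median of 6.74 TPM (3.94 to 10.1), below the lowest library of GLUT1. The ratio of SGLT2 to SGLT1 had a median of 8.15 and ran from 4.58 to 14.1.

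The remaining members were low. GLUT3 had a median of 4.87 TPM, and its ranks against SGLT1 were not stable, with SGLT1 higher in 18 of 23 libraries. SLC5A9 had a median of 2.47 TPM and GLUT5 of 1.46 TPM, with SLC5A9 higher in 21 of 23. GLUT9 had a median of 0.115 TPM and only 2 to 26 counts per library. In 2 CF libraries its count was under the limit of 3 that a count of 0 allows, a limit that covers counting error only.

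**Figure D1:**
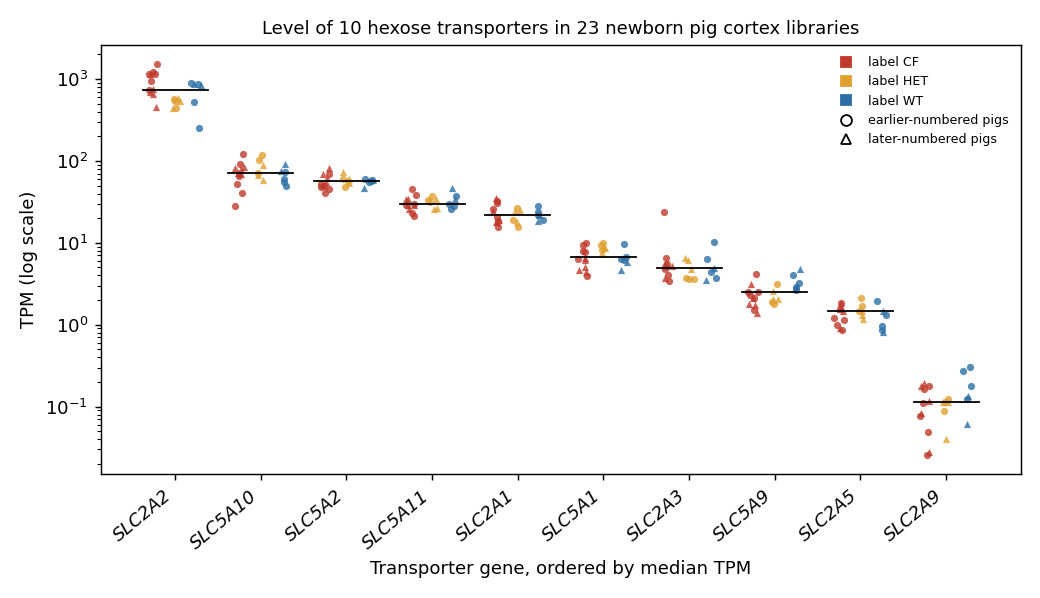
TPM on a log scale for the 10 transporters, ordered by median (black line), with one point per library coloured by genotype label and shaped by number set. GLUT2 lies above all others at a median of 742 TPM, and GLUT9 is lowest at 0.115 TPM.

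The first question was whether the transporters differed between CF and non-CF cortex. All 10 passed the expression filter, and none was called at an adjusted p of 0.05 by edgeR's quasi-likelihood test, where 0.349% of all tested genes were called. GLUT2 alone passed an unadjusted 0.05, which 13.7% of all tested genes did. By sign, 4 members were higher and 6 lower in CF, with a median log2 fold change of -0.03, against -0.00 over all tested genes.

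**Figure D2:**
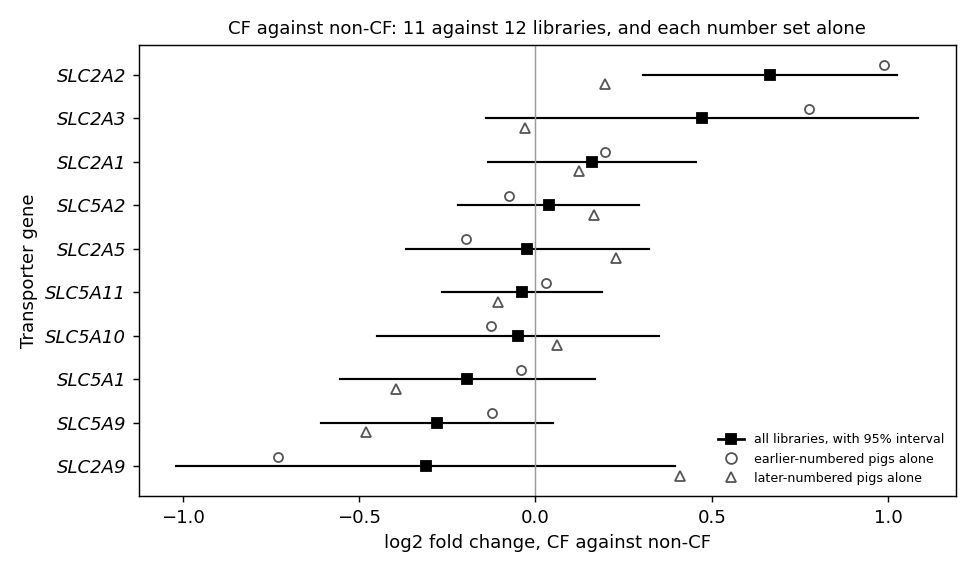
Log2 fold change of CF against non-CF for each transporter. Squares and bars show 11 against 12 libraries (edgeR estimate, with a 95% interval derived from its F statistic), and open symbols show each number set alone. Only the interval of SLC2A2 (0.31 to 1.02) lies clear of 0, and its estimate is larger in the earlier-numbered pigs than in the later-numbered ones.

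GLUT2, the basolateral exit carrier, had the largest estimate. Its read counts, scaled to library size with TMM factors (CPM), ran from 910 through a median of 1715 to 2422 in CF. They ran from 838 through 947 to 1044 in HET and from 457.5 through 1331 to 1497 in WT. Of 11 CF libraries, 9 lay above the highest HET library, 7 lay above the highest WT library, and 10 lay above the non-CF median. The HET libraries were close to one another, with a coefficient of variation of 8.50%, against 30.2% in CF and 35.7% in WT.

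The mean of GLUT2 was 1640 CPM ± 496 (SD, n = 11) in CF and 1035 CPM ± 299 (SD, n = 12) in non-CF. The log2 fold change was 0.66 with a standard error of 0.17, or 1.59-fold with a 95% interval of 1.24 to 2.03, and edgeR's adjusted p was 0.0769. DESeq2 gave nearly the same fold change, 0.67, with an adjusted p of 0.0100, so the call depended on the test. DESeq2 adjusted over 16459 genes and called 515 of them. With an exact Mann-Whitney U test over all tested genes the adjusted p was 0.130. Over all the ways of processing and the single number sets the adjusted p ran from 0.0100 to 0.648.

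The number sets differed in what they showed of GLUT2. In the earlier-numbered pigs the 6 CF libraries ran from 1534 to 2422 CPM with a median of 1921, and the 7 non-CF libraries from 457.5 to 1497 with a median of 972. The groups did not overlap there, which held for 0.631% of tested genes in that set, and the log2 fold change was 0.99 with edgeR's adjusted p of 0.144. In the later-numbered pigs the 5 CF libraries had 1456, 1715, 910, 1111 and 1013 CPM, the 3 HET libraries 938, 955 and 843, and the 2 WT libraries 1319 and 1385. CF overlapped both other labels in this set, where 4.64% of tested genes had no overlap of CF with non-CF, and the log2 fold change was 0.20 with an adjusted p of 0.648. The test of the difference between the sets gave a log2 value of -0.80 (standard error 0.31), with an unadjusted edgeR p of 0.0167, which 10.1% of tested genes passed at 0.05, and an adjusted p of 0.363. No member was called in that test of the difference, where 0.0191% of tested genes were.

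**Figure D3:**
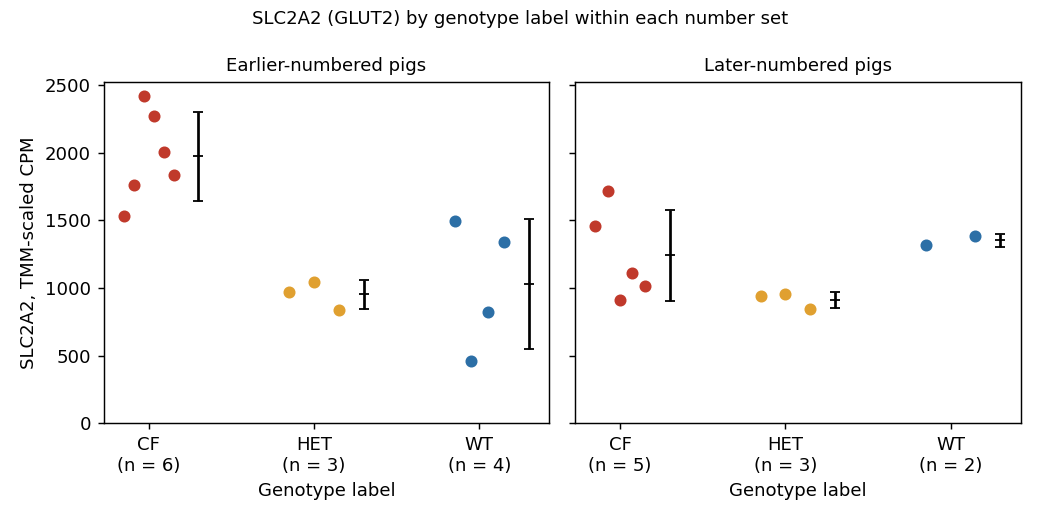
TMM-scaled CPM of SLC2A2 by genotype label in the earlier-numbered pigs (left) and later-numbered pigs (right), with one point per library and black bars for the mean and SD. The 6 earlier-numbered CF libraries (1534 to 2422 CPM) lie above all 7 non-CF libraries of that set, and the later-numbered labels overlap.

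The 3 labels were then compared pairwise. No member was called in any of these comparisons, where edgeR called 0.349% of tested genes for CF against WT, 0.00478% for HET against WT and 0 for CF against HET (2069 genes at an unadjusted p under 0.05, and 65 called by DESeq2). At an unadjusted p under 0.05 each comparison held 2 members, beside 7.99% of all tested genes when HET was set against WT, 9.89% when CF was set against HET and 14.1% when CF was set against WT. GLUT2 had a log2 fold change of 0.82 for CF against HET (standard error 0.22, unadjusted p = 0.000931, adjusted p = 0.235 in edgeR and 0.0350 in DESeq2). It was 0.53 for CF against WT (standard error 0.21, adjusted p = 0.253), where the later-numbered pigs alone gave -0.11. For HET against WT it was -0.29 (standard error 0.24, adjusted p = 0.784). The 3 pairwise comparisons share libraries, so these values are not independent of one another.

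Markers of the proximal tubule, which holds GLUT2, were divided in sign between CF and non-CF. Of 14 markers, 7 were higher and 7 lower and none was called by edgeR, while 4 had an unadjusted p under 0.05, beside 13.7% of all tested genes. Of these 4, 3 were higher and 1 lower in CF. The nearest to a call was AQP1, the water channel of the proximal tubule and thin limb, with a log2 fold change of 0.68 (standard error 0.16, adjusted p = 0.0534). It was above the non-CF median in 11 of 11 CF libraries. CUBN, the endocytic receptor cubilin, had 0.24 (adjusted p = 0.198), ANPEP, a brush-border peptidase, 0.34 (adjusted p = 0.335) and SLC6A19, the luminal carrier of neutral amino acids, -0.59 (adjusted p = 0.198). The summed TPM of the 14 markers ran from 1560 to 2326 in CF, 1285 to 2141 in HET and 1385 to 2104 in WT. For CF against WT 10 markers were higher and 4 lower, and AQP1 was called higher (log2 fold change 0.93, standard error 0.19, adjusted p = 0.0287). The ranges of the summed TPM overlapped between labels, and the part of cell composition in the GLUT2 values was not tested.

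No luminal sodium-coupled carrier passed the test between CF and non-CF. SGLT2 ran from 83.9 through 113 to 192 CPM in CF, 99.99 through 125 to 137 in HET and 86.3 through 111 to 125 in WT. The CF libraries thus reached both lower and higher than the others. Its log2 fold change was 0.04 (95% interval -0.22 to 0.29, adjusted p = 0.941 in edgeR). The interval leaves room for folds between 0.860 and 1.23.

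SGLT1 ran from 12.03 through 26.5 to 35.8 CPM in CF, 27.1 through 32.3 to 36.7 in HET and 15.3 through 21.3 to 31.1 in WT. All 6 HET libraries were above the WT median, and 3 were above the highest WT library. Its log2 fold change was 0.56 for HET against WT (standard error 0.22, unadjusted p = 0.0192, adjusted p = 0.587 in edgeR) and -0.44 for CF against HET (standard error 0.19, unadjusted p = 0.0291, adjusted p = 0.450). For CF against non-CF it was -0.19 (adjusted p = 0.692). In the earlier-numbered pigs CF ran from 12.03 to 35.8 CPM and HET from 30.5 to 36.7. In the later-numbered pigs CF ran from 14.8 to 26.5 CPM, HET from 27.1 to 34.03 and WT from 15.3 to 18.7. CF against HET had an adjusted p of 0.0524 in edgeR in the later-numbered pigs alone, where 535 of 20882 tested genes were called. Another gene of chromosome 14 annotated as similar to SGLT1 (LOC102159834) had a median of 0.446 TPM, and reads of shared sequence may be split between them.

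SLC5A9, the mannose and fructose carrier, ran from 6.42 through 8.72 to 15.9 CPM in CF, 7.77 through 8.88 to 14.3 in HET and 10.2 through 12.8 to 18.4 in WT. Of 11 CF libraries, 7 lay below the lowest WT library, and so did 4 of 6 HET libraries. Against WT, CF had a log2 fold change of -0.49 (standard error 0.18, unadjusted p = 0.0117, adjusted p = 0.202 in edgeR). The value was -0.45 for HET against WT (unadjusted p = 0.0392, adjusted p = 0.624) and -0.04 for CF against HET. For CF against non-CF it was -0.28 (adjusted p = 0.463). Nearly all counts of this gene fell on transcripts annotated as noncoding variants, and its coding model had a median of 0 TPM.

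SLC5A10 ran from 43.8 CPM in CF pig 6 to 235 CPM in CF pig 2. Its CF median was 132 CPM, with 140 in HET and 114 in WT. CF against non-CF had a log2 fold change of -0.05 (95% interval -0.45 to 0.35, adjusted p = 0.953 in edgeR). SLC5A11, the myo-inositol carrier, ran from 44.0 to 100.5 CPM in CF, with a median of 59.3, and from 51.7 to 86.6 in non-CF, with a median of 63.1. Its log2 fold change was -0.04 (95% interval -0.26 to 0.19). The gene lies on an unplaced scaffold of the assembly.

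Among the other facilitative carriers, GLUT1 ran from 38.8 through 49.4 to 91.2 CPM in CF, 40.1 through 49.95 to 64.5 in HET and 39.5 through 47.5 to 61.1 in WT. CF pigs 1, 5 and 7, at 87.6, 78.3 and 91.2 CPM, were the 3 libraries above the highest non-CF library. For GLUT1 the log2 fold change of CF against non-CF was 0.16 (95% interval -0.14 to 0.45, adjusted p = 0.689 in edgeR). GLUT5 ran from 2.03 to 4.35 CPM in CF and from 1.73 to 5.07 in non-CF, with a log2 fold change of -0.02 (adjusted p = 0.974). GLUT9 had a log2 fold change of -0.31 with a 95% interval of -1.02 to 0.40 and an adjusted p of 0.754, from 2 to 26 counts per library.

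The estimate for GLUT3 rested on 1 library. CF pig 1 had 112 CPM, while the other CF libraries had 13.4 to 26.3 CPM, and the highest non-CF library, WT pig 12, had 40.4 CPM. Its log2 fold change of CF against non-CF was 0.47 (standard error 0.30, adjusted p = 0.515 in edgeR), and without CF pig 1 it was -0.05. The 3 genes whose log2 CPM was most like that of GLUT3 over 23 libraries were BTG2, DUSP1 and CYR61, known as immediate early genes, with Pearson's r from 0.90 to 0.91. In CF pig 1 they had 238, 250 and 266 CPM, against at most 70.7, 132 and 94.4 CPM in the other 22 libraries. Without that library r was 0.73 to 0.74. The part of this library's immediate early RNA in its GLUT3 value was not tested. The heat map of deviations shows the library as the single darkest cell.

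**Figure D4:**
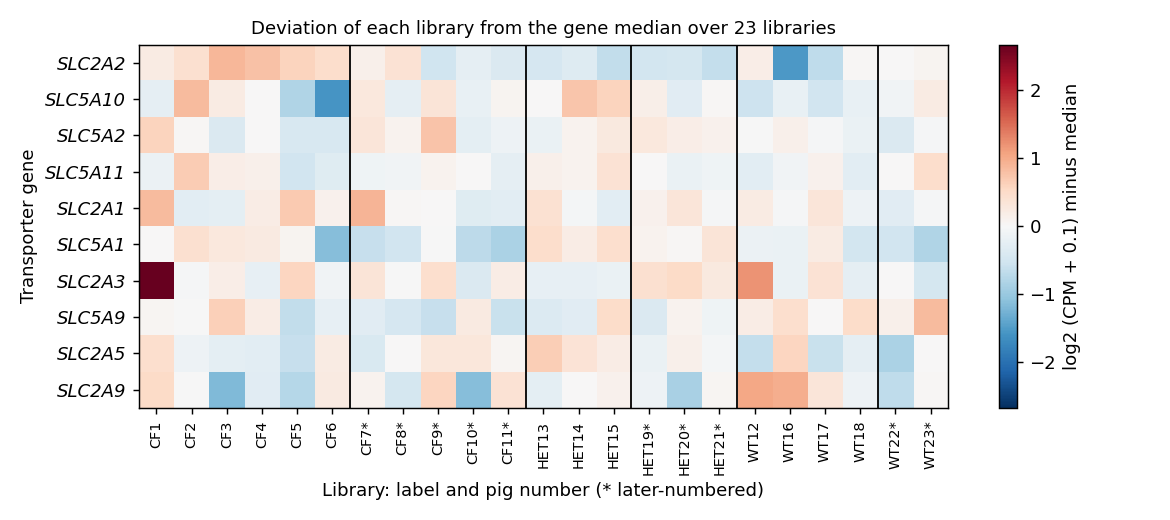
Log2 (CPM + 0.1) of each transporter in each of 23 libraries, minus that gene's median, with libraries ordered by label and number set (asterisks mark later-numbered pigs). SLC2A3 in CF1, at 112 CPM, stands farthest from its median, and SLC2A2 is above its median in CF1 to CF8 and in WT12, WT18 and WT23.

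Between the number sets, 1 of the 10 transporters was called, where 9.91% of all tested genes were. It was SGLT1, which ran from 12.03 through 30.5 to 36.7 CPM in the 13 earlier-numbered pigs and from 14.8 through 18.6 to 34.03 CPM in the 10 later-numbered pigs. Of the later-numbered libraries, 9 of 10 lay below the earlier median, and the ranges overlapped. The log2 fold change, adjusted for label, was -0.46 (standard error 0.14, adjusted p = 0.0372 in edgeR). Because the sets were chosen with earlier results of these data known, the p-values between them serve as description. The call was lost in 12 of the 23 fits that left out 1 library, with adjusted p up to 0.0658 without CF pig 11, and on log2 TPM in limma (adjusted p = 0.0601). The other 9 members had log2 fold changes from -0.40 (GLUT3) to 0.12 (SGLT2). In the same comparison 13 of 14 proximal tubule markers were higher in the later-numbered pigs, 3 of them called, and their summed TPM was 1651 ± 191 (SD, n = 13) in the earlier and 1980 ± 227 (SD, n = 10) in the later set. Of 8 endothelial markers, 6 were lower in the later-numbered pigs, and 2 of them were called. These were VWF (-1.11, adjusted p = 0.0135 in edgeR) and CDH5 (-0.40, adjusted p = 0.0160). Collecting duct markers were divided, with 5 of 8 higher and 3 lower. The 1 called among them was AQP2, the water channel, which was lower (-0.62, adjusted p = 0.0453). Of 8 markers of the loop and distal tubule, 6 were higher and 2 lower, with 1 called higher. The part of these shifts in the SGLT1 value was not tested.

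Both SGLT1 transcripts were present in every library, as far as kallisto can assign reads that differ only at the first exon. The transcript with the downstream first exon, printed above, made up 47.5% ± 12.6 (SD, n = 23) of SGLT1 counts, and its share ran from 17.3% in CF pig 10 to 70.6% in WT pig 17. It exceeded the upstream transcript in 10 of 23 libraries, namely 3 of 11 CF, 4 of 6 HET and 3 of 6 WT. In CPM the downstream transcript ranged from 2.84 to 22.7 and the upstream one from 8.46 to 19.2, so the downstream transcript varied more. The downstream transcript had 14.9 CPM ± 5.53 (SD, n = 13) in the earlier and 9.88 CPM ± 5.44 (SD, n = 10) in the later set. The upstream transcript had 13.4 CPM ± 3.63 and 11.8 CPM ± 2.07. These shares are estimates and were not tested.

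**Figure D5:**
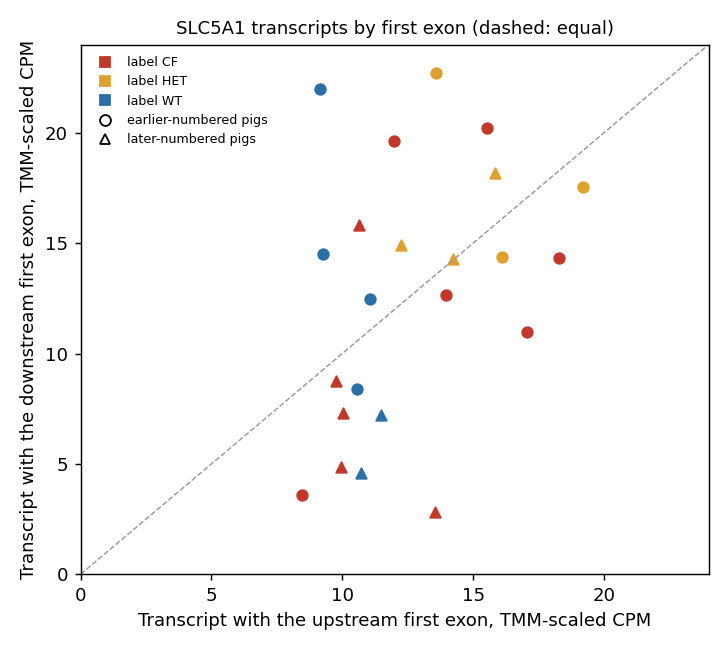
TMM-scaled CPM of the SLC5A1 transcript with the downstream first exon (vertical) against that with the upstream first exon (horizontal), one point per library, coloured by label and shaped by number set, with a dashed line at equal values. Points spread more along the vertical axis (2.84 to 22.7 CPM) than along the horizontal axis (8.46 to 19.2 CPM).

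The SGLT2 transcripts were divided more evenly across pigs. Those with the downstream first exon made up 70.2% ± 4.403 (SD, n = 23) of SGLT2 counts, from 61.8% to 78.2%. The mean was 71.1% in CF, 69.9% in HET and 69.0% in WT. Transcripts that skip the second and the third exon, of 72 and 105 bases, made up 8.36% ± 1.74 (SD, n = 23), from 4.12% to 11.2%. The second exon is the one set beside that of SLC5A1 above.

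Other sugar and inositol carriers of both families were taken from a list of 11 genes. Of these 10 were tested, and none was called between CF and non-CF. SLC2A4, the insulin-regulated GLUT4 of muscle and fat, had a log2 fold change of 0.39 (adjusted p = 0.335 in edgeR), and SLC2A8, an intracellular carrier, of -0.24 (adjusted p = 0.347). Between the number sets, where 9.91% of all tested genes were called, 1 of the 10 was called higher and 1 called lower in the later-numbered pigs. SLC5A4, a sugar carrier gene that neighbours SLC5A1 on chromosome 14, rose by a log2 fold change of 0.86 (standard error 0.16, adjusted p = 0.00249), from 7.72 CPM ± 2.54 (SD, n = 13) to 13.99 CPM ± 2.72 (SD, n = 10). SLC5A3, the osmotically regulated myo-inositol carrier, fell by 0.47 on the log2 scale (standard error 0.10, adjusted p = 0.00698), from 191 CPM ± 37.1 to 136 CPM ± 22.7.

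Of 9 tested regulators of these transporters, none was called between CF and non-CF. The alpha-arrestins ARRDC4 and TXNIP, which restrain glucose uptake, had log2 fold changes of 0.40 (adjusted p = 0.126 in edgeR) and 0.36 (adjusted p = 0.353), with ARRDC4 above the non-CF median in 10 of 11 CF libraries. Between the number sets 4 of the 9 were higher and 5 lower in the later-numbered pigs. Of these, 2 were called, both higher, where 9.91% of all tested genes were called. SGK1, a kinase that acts on membrane transporters, rose by 0.74 (adjusted p = 4.85e-05 in edgeR). SLC9A3R1, a scaffold of the brush border, rose by 0.38 (adjusted p = 0.0357).

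Of 14 tested genes of glucose and fructose metabolism, none was called between CF and non-CF, with 3 higher and 11 lower and a median log2 fold change of -0.05. The hexokinase HK1, which traps glucose in the cell, had -0.29 (adjusted p = 0.0966 in edgeR), below the non-CF median in all but 1 of 11 CF libraries. Between the number sets 8 of the 14 were higher and 6 lower in the later-numbered pigs. Of these, 3 were called higher and 1 called lower, where 9.91% of all tested genes were called. SORD, sorbitol dehydrogenase, rose by 0.50 (adjusted p = 0.00980 in edgeR). SLC37A4, the glucose 6-phosphate carrier of the endoplasmic reticulum, rose by 0.42 (adjusted p = 0.0104).

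Neither the urate list (11 tested) nor the inositol list (5 tested) held a call between CF and non-CF. MIOX, which breaks down myo-inositol in the proximal tubule, had a log2 fold change of 0.63 (standard error 0.23, adjusted p = 0.199 in edgeR). In the later-numbered pigs 7 of the 11 urate genes were higher and 4 lower, with 2 called higher. Of the 5 inositol genes 3 were higher and 2 lower, with 1 called higher and 1 called lower. Of all tested genes 9.91% were called there. MIOX rose by 0.65 (adjusted p = 0.0415 in edgeR), SLC22A6, the organic anion transporter OAT1, by 1.37 (adjusted p = 0.00672) and the scaffold PDZK1 by 0.30 (adjusted p = 0.0372).

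Markers of the other cell types of the cortex held no call between CF and non-CF in any list. The list of loop and distal tubule markers came nearest, with 1 of 8 higher and 7 lower in CF. Of the 8, 3 had an unadjusted p under 0.05 in edgeR, beside 13.7% of all tested genes. CALB1, calbindin of the distal tubule, had -1.40 (adjusted p = 0.0636 in edgeR), SLC12A3, the distal sodium chloride cotransporter, -0.64 (adjusted p = 0.0843) and SLC12A1, the cotransporter of the thick ascending limb, -0.28 (adjusted p = 0.0966). All 3 were below the non-CF median in every CF library. Of 10 leukocyte markers 8 were tested, with 2 higher and 6 lower in CF, and their summed TPM ran from 38.2 to 118 in CF, 28.4 to 152 in HET and 38.5 to 100.4 in WT. Of 13 listed hypoxia-response genes, 6 were higher and 7 lower in CF, and PFKFB3 was nearest to a call at 0.94 (adjusted p = 0.0508).

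How transporters moved together was asked for 4 pairs of genes, each over all libraries and within each number set, so 12 relations were tested with 100000 permutations and none passed after adjustment. SGLT2 and PDZK1IP1, the small membrane protein MAP17 known as its partner, had Pearson's r = 0.54 over 23 libraries (two-sided permutation p = 0.00752, adjusted 0.0902) and Spearman's rho = 0.56 (p = 0.00622, adjusted 0.0746). Within the sets r was 0.48 (earlier, n = 13) and 0.58 (later, n = 10), and without the 2 libraries farthest from the SGLT2 median it was 0.59. SGLT2 and GLUT2, the luminal entry and the basolateral exit of the same cells, had r = -0.38 (permutation p = 0.0782, adjusted 0.295) and rho = -0.41 (p = 0.0533, adjusted 0.213). Within the sets r was -0.41 and -0.29, and without the 2 farthest libraries -0.47. SGLT1 and GLUT1 had r = 0.08 (permutation p = 0.715, adjusted 0.789) and rho = 0.09 (p = 0.667, adjusted 0.667), with -0.05 and 0.15 within the sets and 0.01 without the 2 farthest libraries. GLUT5 and the fructose kinase KHK had r = 0.29 (permutation p = 0.183, adjusted 0.314) and rho = 0.28 (p = 0.190, adjusted 0.380), with 0.20 and 0.50 within the sets and 0.26 without the 2 farthest libraries. The value of 0.50 in the later-numbered pigs fell to 0.078 without its 2 farthest libraries, WT pig 22 and CF pig 7.

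As a description, the genes whose log2 CPM was most like that of each member were sought among the 20921 tested genes over 23 libraries, which share depth and number set. For GLUT2 these were AEBP2 (Pearson's r = 0.88), ZBTB44 (0.86) and ASB14 (0.86). For SGLT2 they were PDXK (0.88), GLTPD2 (0.87) and BSG (0.86), and for SGLT1 they included TSSK6 (0.83) and HABP4 (0.82). None of the 3 nearest genes of any member was itself a member. GLUT5 and GLUT9 had weaker nearest genes, at most 0.74 and 0.75.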

How the data were processed

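RNA was extracted from kidney cortex of 23 newborn pigs, and stranded libraries were sequenced after removal of ribosomal RNA. The authors pseudoaligned reads to Sscrofa11.1 transcripts with kallisto and deposited, per library and transcript, an estimated count (not normalized) and a TPM value. Values of the 77689 transcripts were added per symbol of the deposited transcript table, giving 26687 genes, and rounded, since 64.0% of transcript values were not whole. TPM values were summed likewise and used to compare genes, for the summed levels of marker lists, and in 1 alternative test. Kallisto divides reads shared by several transcripts, so transcripts that differ in 1 exon, and related genes, have uncertain shares.

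Counts were tested in edgeR 4.0.16 (R 4.3.3) with TMM scaling, filterByExpr (20921 genes kept), the quasi-likelihood test and Benjamini-Hochberg adjustment over all tested genes at 0.05. CF was compared with non-CF, the 3 labels pairwise in 1 fit, and later- with earlier-numbered pigs with label as a term; a further fit tested the difference of the CF effect between number sets. Correlations used log2 CPM (prior count 2) and 100000 permutations. Alternatives were DESeq2 1.42.0, median-of-ratios and upper-quartile scaling, no filter, limma 3.58.1 on log2 (TPM + 0.1), the number set as a term, each set alone, WT alone as the control, the Mann-Whitney U test named in the paper's methods (scipy 1.17.1, medians with a pseudocount of 0.5), and each library left out. The fits were checked on simulated data. Sequences were read with pysam 0.24.0 from the RefSeq assembly Sscrofa11.1, the build of the deposited files, and figures were drawn with matplotlib 3.10.9.

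The members, the lists and the number sets were chosen with earlier results of these data known. Named genes are the 10 members, CFTR, up to 5 genes of each of 14 other lists with the smallest p in a comparison, and the 3 genes most like each member. LOC102159834 was added because of its similarity to SLC5A1. Pairwise values are given for members with an unadjusted p under 0.05 in a pairwise comparison. Some genes that these rules name are not reported here. Raw reads, metabolites and human data were not analysed here.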

Additional observations from a re-analysis of the deposited data

Results flagged for a closer look

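One value stood apart within its group. Among the 6 WT libraries, GLUT3 (SLC2A3) was 40.4 CPM in WT pig 12, against 12.7 to 23.1 CPM in the other 5. The gap to the nearest library was 0.626 of the group's range, just above Dixon's critical value of 0.625 for 6 libraries. In all, 30 groups of 6 were examined (HET and WT, for the members, CFTR and the transcripts of SLC5A1 and SLC5A2 by first exon), and chance alone marks about 1 in 20.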

How the results depend on the processing

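No paired analysis of littermates was possible because the labels do not give litter, and each library came from another pig. The number of the 10 transporters called between CF and non-CF was 0, and 1 with DESeq2 (GLUT2), which called 515 of 16459 genes. Between CF and HET it was 0, and 1 with DESeq2 (GLUT2), which called 65 of 20908 genes. Between the number sets it was 1 (SGLT1), and 0 on log2 TPM in limma (log2 fold change -0.36), with 0 to 1 when a library was left out. All genes called between CF and non-CF numbered 73, against 515 with DESeq2, 148 with the number set as a term, 473 in the later-numbered and 0 in the earlier-numbered pigs alone, 8 with limma, 29 with the Mann-Whitney test, and 17 (without HET pig 21) to 203 (without CF pig 4) with a library left out. Between CF and WT they numbered 73, with 33 in the earlier-numbered pigs to 576 with DESeq2 and 20 (without WT pig 12) to 203 (without CF pig 4) with a library left out, and between CF and HET 0, with up to 535 in the later-numbered pigs and 3 with a library left out. Between HET and WT they numbered 1, with up to 33 with DESeq2 and 4 with a library left out (HET pig 15). For the difference between the sets they numbered 4, with 0 with limma to 144 with DESeq2 and 1 (without CF pig 3) to 91 (without CF pig 1) with a library left out. Between the number sets they numbered 2073, with 1047 (without WT pig 22) to 2514 (without CF pig 1) with a library left out. The cause of these differences was not tested.

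Some estimates that had not passed the test changed sign. For CF against non-CF, WT alone as the control gave 0.11 for SLC5A1, 0.20 for SLC5A10 and 0.21 for SLC2A5. The earlier-numbered pigs alone gave -0.075 for SLC5A2 and 0.030 for SLC5A11, and the later-numbered pigs alone 0.060 for SLC5A10, -0.029 for SLC2A3, 0.23 for SLC2A5 and 0.41 for SLC2A9. Limma gave -0.032 for SLC5A2, DESeq2 gave -0.051 for SLC2A3, and the log2 ratio of medians beside the Mann-Whitney test was -0.035 for SLC5A2, 0.064 for SLC5A10 and 0.025 for SLC2A5. With a library left out the ranges were -0.054 to 0.080 for SLC5A2, -0.17 to 0.041 for SLC5A10, -0.13 to 0.0063 for SLC5A11, -0.051 (without CF pig 1) to 0.62 for SLC2A3 and -0.082 to 0.054 for SLC2A5. GLUT2 kept its direction in each of these fits, from 0.59 to 0.73 with a library left out, and adjusted p from 0.0652 to 0.147. SLC2A9 passed the filter in 12 of the 23 fits that left out a library. By label, SLC5A1 was -0.028 for CF against WT with limma, SLC5A9 was 0.064 for CF against HET in the earlier-numbered pigs and -0.15 to 0.11 with a library left out, and SLC2A2 was -0.11 for CF against WT in the later-numbered pigs. The correlation of SLC5A2 with SLC2A2 in the later-numbered pigs was 0.054 without the 2 farthest libraries.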
